A study of Homo sapiens with 9 samples.

Results

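The cytokines of the IL-6 and IL-1 families and their receptors were followed across 3 lentivirally transduced cultures of MDA-MB-231, a human breast cancer line of triple-negative, mesenchymal type. The set holds 10 genes of the 22465 genes that the array measured with a single-symbol transcript cluster. It consists of the IL-6 family cytokines *IL6*, *IL11* and *LIF*, the IL-1 family cytokines *IL1A* and *IL1B*, the IL-10 family cytokine *IL24*, and the receptor genes *IL6ST*, *OSMR*, *IL1R1* and *IL1RAP*. Each gene was represented by its transcript cluster with the highest mean over the 9 arrays. Of the 10 genes, only *IL1RAP* had another single-symbol cluster, which read 5.31 to 5.66 on all arrays and passed the test in no comparison.

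Total RNA was measured on Affymetrix Human Transcriptome Array 2.0 microarrays. All cells carried the lentiviral vector pLVX shRNA1. In the control cells, named LUC, it expressed a short hairpin RNA to firefly luciferase. In the other cultures it expressed a hairpin to *ELOVL5*, a fatty acid elongase, or to *IGFBP6*, which encodes a secreted binding protein of insulin-like growth factors. The methods describe 1 stable culture of each kind for these arrays, each knockdown picked from a pair of cultures for its stronger decrease of the target, with 3 independently obtained RNA samples per culture. Hence the tests weigh differences against the variation among RNA samples of one culture only, and an effect of the targeted gene cannot be told apart from a property of the culture. The labels give a cell line as the origin of all samples, while their extraction text speaks of frozen tumors.

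The values were log2 intensities as deposited, and a difference of 1 on this scale is a 2-fold change. The median of all values was 5.02. A gene was called higher or lower at a Benjamini-Hochberg adjusted p under 0.05 over all 67528 transcript clusters (limma) together with a change of at least 1.5 times. Within groups the arrays correlated at 0.990 to 0.998. The level of *ELOVL5* fell by 1.66 in its knockdown (3.15-fold, limma, adjusted p = 8.71e-05). *IGFBP6* fell by 0.62 in its own (1.54-fold, adjusted p = 0.00183), from 6.03 to 6.21 on the LUC arrays to 5.30 to 5.65. The 7 mesenchymal markers measured, vimentin among them, read 12.26 to 15.77 on all arrays, although 2 of them rose and 3 fell in the IGFBP6 culture. *ESR1* and *PGR*, the estrogen and progesterone receptors, read 4.03 to 4.79. The other 5 luminal markers measured read higher. The keratin genes *KRT8*, *KRT18* and *KRT19* read 12.01 to 13.34, 12.72 to 13.22 and 9.48 to 10.70. *EPCAM* read 7.46 to 8.07 and the transcription factor gene *GATA3* 6.40 to 7.33. Of these 5, 3 fell in the IGFBP6 culture, *KRT8* (−1.06, limma, adjusted p = 0.000105), *KRT19* (−0.70, adjusted p = 0.00998) and *GATA3* (−0.76, adjusted p = 0.000208).

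IL-6 family cytokines bind a private receptor chain and then the common chain gp130, the product of *IL6ST*, which activates JAK kinases and STAT3. LIF joins gp130 with the LIF receptor, and oncostatin M can join it with the oncostatin M receptor, the product of *OSMR*. IL-1 alpha and IL-1 beta both bind IL-1 receptor type 1, the product of *IL1R1*, which recruits the accessory protein encoded by *IL1RAP* and signals through MYD88 and IRAK kinases to NF-kappaB. In fibroblasts and carcinoma cells IL-1 is a known inducer of IL-6, IL-11 and LIF. IL-24 belongs to the IL-10 family and signals through the receptors built from *IL20RA*, *IL20RB* and *IL22RA1*.

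Promoter sequences of 4 members are shown because 2 of these genes rose and 2 fell in the IGFBP6 knockdown. They come from RefSeq (GRCh38.p14), cover the 250 bases before the annotated start and read 5′ to 3′ on the strand of the gene. Capitals mark matches on either strand to AP-1 (TGANTCA), C/EBP (TTGCNNAA), STAT (TTCNNNGAA) or an NF-kappaB consensus, and no 2 matches overlap. *IL1A* lies at chr2:112784401-112784650, minus strand. *IL1B* lies at chr2:112836780-112837029, minus strand. *IL6* lies at chr7:22726950-22727199, plus strand. *IL6ST* lies at chr5:55994964-55995213, minus strand.
IL1A: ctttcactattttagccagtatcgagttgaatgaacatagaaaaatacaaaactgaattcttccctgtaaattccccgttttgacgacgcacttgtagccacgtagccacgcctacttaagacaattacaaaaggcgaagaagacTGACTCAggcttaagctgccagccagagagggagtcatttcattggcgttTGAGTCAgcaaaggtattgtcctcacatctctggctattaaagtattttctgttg
IL1B: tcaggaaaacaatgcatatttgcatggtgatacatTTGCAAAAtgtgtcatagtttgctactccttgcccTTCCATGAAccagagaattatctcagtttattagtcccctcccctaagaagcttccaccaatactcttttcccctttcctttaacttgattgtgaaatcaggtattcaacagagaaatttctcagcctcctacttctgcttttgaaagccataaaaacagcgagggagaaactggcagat
IL6: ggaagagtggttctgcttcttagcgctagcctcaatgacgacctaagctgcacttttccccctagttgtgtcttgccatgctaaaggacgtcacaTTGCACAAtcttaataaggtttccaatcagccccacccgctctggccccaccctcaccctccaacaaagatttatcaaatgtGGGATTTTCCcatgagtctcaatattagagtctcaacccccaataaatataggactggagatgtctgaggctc
IL6ST: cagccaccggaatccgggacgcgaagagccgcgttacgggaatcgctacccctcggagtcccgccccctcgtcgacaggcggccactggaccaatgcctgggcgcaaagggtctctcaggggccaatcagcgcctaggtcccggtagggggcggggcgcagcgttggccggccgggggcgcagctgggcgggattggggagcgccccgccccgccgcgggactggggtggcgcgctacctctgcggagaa

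The *IL1A* window shown held AP-1 matches that begin 105 and 55 bases before the start. It was picked over another *IL1A* window, chr2:112784494-112784743, for its larger number of matches. That other window held 1 AP-1 match, at 12, and had a GC content of 37.6%. *IL1B* held a C/EBP match at 215 and a STAT match at 180. *IL6* held a C/EBP match at 155 and an NF-kappaB match at 73, and *IL6ST* held none of these motifs. Of all 35116 promoters of the same length, 6.57% held an AP-1, 9.05% a C/EBP, 6.57% a STAT and 5.21% an NF-kappaB match. GC content was 42.0% for *IL1A*, 40% for *IL1B* and 47.6% for *IL6*, against 73.6% for *IL6ST* and a median of 58.0% over all promoters. A promoter was found for 9 of the 10 members, the exception being *LIF*. Among the others, *IL11* held an AP-1 match at 96, *OSMR* a C/EBP match at 73 and 1 of the *IL1R1* windows a STAT match at 47, while *IL24* and *IL1RAP* held none. A match describes these letters and not a bound factor.

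In the IGFBP6 knockdown, 5 of the 10 genes fell and 3 rose. The genes that fell were *IL6*, *LIF*, *IL6ST*, *OSMR* and *IL1R1*, by 2.03 to 3.18 times. Those that rose were *IL24*, *IL1B* and *IL1A*, by 7.85, 4.95 and 1.54 times. Of all genes tested, 7.82% were called higher and 8.49% lower in this comparison. The 10 genes were chosen with earlier results of these data known, so their share of calls is no test of the family. The LUC and IGFBP6 arrays did not overlap for 8 of the 10 genes, against 37.7% of all genes. The median log2 difference of the members was −0.72, and that of all genes was −0.01. RNA of a whole culture was measured, so fewer expressing cells and less RNA per cell cannot be told apart.

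**Figure D1:**
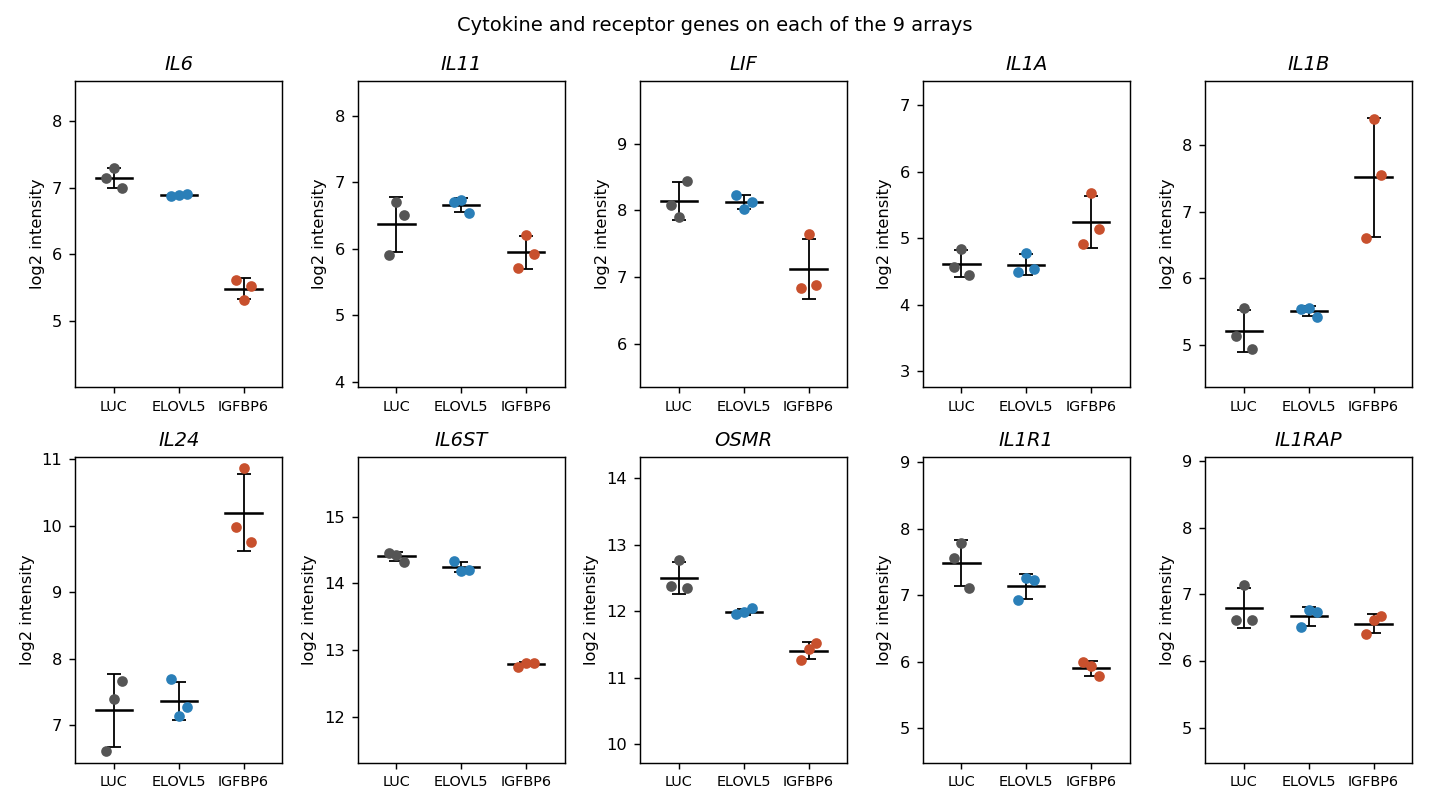
Log2 intensity of the 10 genes on each array (points), with the mean and SD of the 3 arrays of a group (bars). All panels have the same height on the log2 scale. *IL6*, *IL6ST*, *OSMR* and *IL1R1* are lower on every IGFBP6 array than on any other, *IL1B* and *IL24* are higher, and the IGFBP6 arrays of *IL1B* are spread from 6.61 to 8.39.

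*IL6* on chromosome 7 (TC07000137.hg.1) encodes interleukin 6, the founding cytokine of the family. It read 7.15, 7.30 and 7.0 on the LUC arrays, 6.88, 6.89 and 6.91 on the ELOVL5 arrays and 5.61, 5.31 and 5.53 on the IGFBP6 arrays. Every IGFBP6 array was lower than every other array, and the ELOVL5 arrays lay just under the lowest LUC array. The IGFBP6 mean of 5.48 ± 0.16 (SD, n = 3) was lower than the LUC mean of 7.15 ± 0.15 (SD, n = 3) by 3.18 times (log2 difference −1.67, SE 0.11, limma, adjusted p = 3.24e-06). The ELOVL5 mean of 6.89 ± 0.02 (SD, n = 3) differed from LUC by −0.26 (95% confidence interval −0.50 to −0.02) and did not pass the test (adjusted p = 0.398). *STEAP1B*, the gene before *IL6* in chromosome order, rose by 0.60 in the IGFBP6 knockdown (adjusted p = 0.00205), and *TOMM7*, the gene after it, was not called (0.37). Further before it, *RAPGEF5* rose by 1.70 and *CDCA7L* by 0.83 (adjusted p 0.000243 and 0.000327).

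*LIF* on chromosome 22 (TC22000647.hg.1) encodes leukemia inhibitory factor. It read 8.08, 7.90 and 8.45 on the LUC arrays and 8.23, 8.02 and 8.12 on the ELOVL5 arrays. On the IGFBP6 arrays it read 6.84, 7.64 and 6.88, so IGFBP6 replicate 2 stood closer to the control than the other two did, without reaching it. *LIF* fell by 1.02 on the log2 scale in the IGFBP6 knockdown (2.03-fold, SE 0.21, limma, adjusted p = 0.00643), from a mean of 8.14 ± 0.28 to 7.12 ± 0.45 (SD, n = 3). The call was not reached when the spread came from the arrays of this gene alone (adjusted p = 0.0503). The difference in the ELOVL5 knockdown was −0.02 (95% interval −0.49 to 0.45, adjusted p = 0.991). Its neighbour *OSM*, which encodes oncostatin M, read 4.96 to 5.04 on all arrays. Among the genes further away, *MTMR3* fell by 0.93 (adjusted p = 0.000162) and *SF3A1* rose by 0.61 (adjusted p = 0.00141).

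*IL11* on chromosome 19 (TC19001870.hg.1) encodes interleukin 11, another gp130 cytokine. It read 5.90, 6.70 and 6.50 on the LUC arrays, 6.70, 6.73 and 6.53 on the ELOVL5 arrays and 5.71, 6.21 and 5.92 on the IGFBP6 arrays. LUC replicate 1 lay within the range of the IGFBP6 arrays, so those groups overlapped, while the IGFBP6 and ELOVL5 arrays did not. The difference of IGFBP6 from LUC was −0.42 (95% interval −0.86 to 0.02) and did not pass the test (limma, adjusted p = 0.204). Without LUC replicate 1 it was −0.65 and passed (adjusted p = 0.0185), and without LUC replicate 2 it was −0.25 (adjusted p = 0.523). *IL11* was 1.63 times lower in the IGFBP6 than in the ELOVL5 knockdown (log2 difference −0.71, SE 0.20, adjusted p = 0.0349). That call was lost on leaving out ELOVL5 replicate 1, 2 or 3 (adjusted p 0.0997, 0.107 and 0.0679) or IGFBP6 replicate 1 or 3 (0.101 and 0.0916). It was also lost with median centring (0.0577), without moderation (0.127) and by an analysis of variance of the 2 groups alone, also unmoderated (0.0931).

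*IL1B* and *IL1A* are adjacent genes on chromosome 2 that encode IL-1 beta and IL-1 alpha, the agonists of IL-1 receptor type 1. *IL1B* (TC02002219.hg.1) read 5.13, 5.56 and 4.94 on the LUC arrays and 5.54, 5.56 and 5.42 on the ELOVL5 arrays, near the median of the array. It read 6.61, 8.39 and 7.55 on the IGFBP6 arrays, which all exceeded every other array but differed widely among themselves. *IL1B* rose 4.95-fold in the IGFBP6 knockdown, from a mean of 5.21 ± 0.32 to 7.52 ± 0.89 (SD, n = 3; log2 difference 2.31, SE 0.35, limma, adjusted p = 0.00104). The ELOVL5 knockdown differed from LUC by 0.30 (95% interval −0.49 to 1.08, adjusted p = 0.855).

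*IL1A* (TC02002218.hg.1) read 4.56, 4.84 and 4.45 on the LUC arrays, 4.49, 4.78 and 4.53 on the ELOVL5 arrays and 4.91, 5.67 and 5.14 on the IGFBP6 arrays. The lowest IGFBP6 array was only slightly above the highest LUC array, and most values lay under the median of the array. *IL1A* rose 1.54-fold in the IGFBP6 knockdown (log2 difference 0.62, SE 0.18, limma, adjusted p = 0.0421). It was called in 7 of the 22 alternative settings. Among single arrays, the call was lost without ELOVL5 replicate 1, 2 or 3 (adjusted p 0.0563, 0.0510 and 0.0634), IGFBP6 replicate 3 (0.0708) or LUC replicate 1 or 3 (0.114 and 0.135). Without IGFBP6 replicate 2 the difference was 0.41 and was not called either (adjusted p = 0.103). The ELOVL5 knockdown differed from LUC by −0.02 (95% interval −0.43 to 0.39, adjusted p = 0.992). *CKAP2L* before the pair and the IL-1 family genes *IL37* and *IL36G* after it were not called in either knockdown. *CKAP2L* differed by −0.53 in the IGFBP6 knockdown (limma, adjusted p = 0.0164), under the fold threshold.

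*IL24* on chromosome 1 (TC01001730.hg.1) encodes interleukin 24 and changed most among the 10 genes in the IGFBP6 knockdown. It read 6.61, 7.39 and 7.67 on the LUC arrays, 7.69, 7.14 and 7.27 on the ELOVL5 arrays and 9.98, 10.86 and 9.75 on the IGFBP6 arrays. The LUC and ELOVL5 arrays were intermixed, and all IGFBP6 arrays were far above them. The mean rose from 7.22 ± 0.55 to 10.20 ± 0.59 (SD, n = 3), a 7.85-fold increase (log2 difference 2.97, SE 0.32, limma, adjusted p = 9.95e-05). In the ELOVL5 knockdown the difference was 0.14 (95% interval −0.57 to 0.85, adjusted p = 0.941). *IL24* is the last of a row of IL-10 family genes. *IL10*, *IL19* and *IL20* before it and *FCMR* and *PIGR* after it were not called in either knockdown, with differences in the IGFBP6 knockdown of −0.01 to 0.29. Of the receptor chains of IL-24, *IL20RA* read 4.16 to 4.44, *IL22RA1* read 4.17 to 4.64 and *IL20RB* read 5.47 to 5.91, and none was called in any comparison.

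*IL6ST* on chromosome 5 (TC05001366.hg.1) encodes gp130, the chain shared by the receptors of IL-6, IL-11 and LIF. It read 14.46, 14.43 and 14.33 on the LUC arrays, 14.34, 14.19 and 14.21 on the ELOVL5 arrays and 12.75, 12.80 and 12.81 on the IGFBP6 arrays. The replicates differed little, and the IGFBP6 arrays formed a separate group well under the rest. *IL6ST* fell 3.07-fold in the IGFBP6 knockdown (log2 difference −1.62, SE 0.08, limma, adjusted p = 7.44e-07), from 14.41 ± 0.07 to 12.79 ± 0.03 (SD, n = 3). The difference in the ELOVL5 knockdown was −0.16 (95% interval −0.34 to 0.02, adjusted p = 0.531). Its neighbour *IL31RA*, which encodes a receptor of the same structural family, was not called in either knockdown (0.52 and 0.58). In the IGFBP6 knockdown *IL31RA* missed only the fold threshold (limma, adjusted p = 0.0111). *ANKRD55* on the other side was not called either. The next gene, *MAP3K1*, fell by 2.13 in the IGFBP6 knockdown (adjusted p = 1.46e-06).

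*OSMR*, also on chromosome 5 (TC05000179.hg.1), encodes the chain that pairs with gp130 to bind oncostatin M. It read 12.38, 12.77 and 12.34 on the LUC arrays, 11.95, 11.99 and 12.04 on the ELOVL5 arrays and 11.27, 11.43 and 11.52 on the IGFBP6 arrays. No group overlapped another, and the ELOVL5 arrays lay in between. *OSMR* fell 2.13-fold in the IGFBP6 knockdown (log2 difference −1.09, SE 0.12, limma, adjusted p = 0.000140), from 12.50 ± 0.24 to 11.41 ± 0.13 (SD, n = 3). The ELOVL5 mean of 11.99 ± 0.05 (SD, n = 3) differed from LUC by −0.50 (95% interval −0.78 to −0.23), which did not pass the adjustment over all clusters (unadjusted p = 0.00216, adjusted p = 0.101, limma). The difference between the knockdowns was −0.59, just past the fold threshold (1.5-fold, adjusted p = 0.00873). It fell short of that threshold without ELOVL5 replicate 3 (−0.56) or without IGFBP6 replicate 1 (−0.52), with quantile normalization (−0.58) and with array weights (−0.53).

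The gene next to *OSMR* is *LIFR*, which encodes the LIF receptor and was measured beside the members. It read 9.91, 10.14 and 9.88 on the LUC arrays, 9.17, 9.56 and 9.54 on the ELOVL5 arrays and 8.12, 8.41 and 8.36 on the IGFBP6 arrays. The groups did not overlap and stood in the same order as for *OSMR*. *LIFR* fell 3.20-fold in the IGFBP6 knockdown (log2 difference −1.68, SE 0.13, limma, adjusted p = 1.29e-05) and differed by −0.55 in the ELOVL5 knockdown (adjusted p = 0.0939). The genes around the pair, *EGFLAM*, *WDR70* and *RICTOR*, were not called. *RICTOR* differed by −0.46 in the IGFBP6 knockdown (limma, adjusted p = 0.00912), under the fold threshold.

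*IL1R1* on chromosome 2 (TC02000620.hg.1) encodes the signalling receptor of IL-1 alpha and IL-1 beta. It read 7.56, 7.78 and 7.10 on the LUC arrays, 6.92, 7.25 and 7.23 on the ELOVL5 arrays and 6.0, 5.93 and 5.78 on the IGFBP6 arrays. Every IGFBP6 array was well under the lowest array of the other groups, which overlapped each other. *IL1R1* fell 2.98-fold in the IGFBP6 knockdown (log2 difference −1.58, SE 0.17, limma, adjusted p = 8.59e-05), from 7.48 ± 0.35 to 5.90 ± 0.11 (SD, n = 3). In the ELOVL5 knockdown the difference was −0.35 (95% interval −0.72 to 0.02, adjusted p = 0.482). Thus *IL1B* rose and the gene of its receptor fell in the same culture.

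*IL1RAP* on chromosome 3 (TC03001047.hg.1), the accessory chain of the IL-1 receptor and of several related receptors, passed the test in no comparison. It read 6.62, 7.14 and 6.62 on the LUC arrays, 6.51, 6.76 and 6.74 on the ELOVL5 arrays and 6.40, 6.62 and 6.67 on the IGFBP6 arrays, and the groups overlapped. The IGFBP6 knockdown differed from LUC by −0.23 (95% interval −0.56 to 0.10, limma, adjusted p = 0.398), and the ELOVL5 knockdown by −0.12 (−0.46 to 0.21, adjusted p = 0.861).

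In the ELOVL5 knockdown, 0 of the 10 genes passed the test by limma, at a background of 0.672% of genes called higher and 0.69% called lower. Of the 10, 2 had an unadjusted p under 0.05, *IL6* and *OSMR*, both lower, and these were also the 2 genes whose arrays did not overlap with those of LUC, against 23.7% of all genes. An analysis of variance of the 2 groups alone, without moderation, also called 0. The median log2 difference of the members was −0.07, and that of all genes was −0.02.

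The knockdowns were compared directly, which tests whether their differences from the shared LUC arrays were of the same size. In the IGFBP6 knockdown 3 of the 10 genes were higher and 6 lower than in the ELOVL5 knockdown, and the arrays of 9 did not overlap. Of all genes, 6.5% were called higher, 6.64% were called lower and 39.8% did not overlap. The log2 differences were 2.83 for *IL24* (limma, adjusted p = 0.000210), 2.01 for *IL1B* (0.00322) and 0.64 for *IL1A* (0.0419). They were −1.46 for *IL6ST* (3.07e-06), −1.41 for *IL6* (1.80e-05), −1.23 for *IL1R1* (0.000640) and −1.0 for *LIF* (0.00865). Among these, the *IL1A* call was lost without ELOVL5 replicate 1, 2 or 3 (adjusted p 0.131, 0.0547 and 0.132), IGFBP6 replicate 2 or 3 (0.0956 and 0.0728) or LUC replicate 1 (0.0597). *IL1RAP* differed by −0.11 (95% interval −0.44 to 0.23, adjusted p = 0.734).

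**Figure D2:**
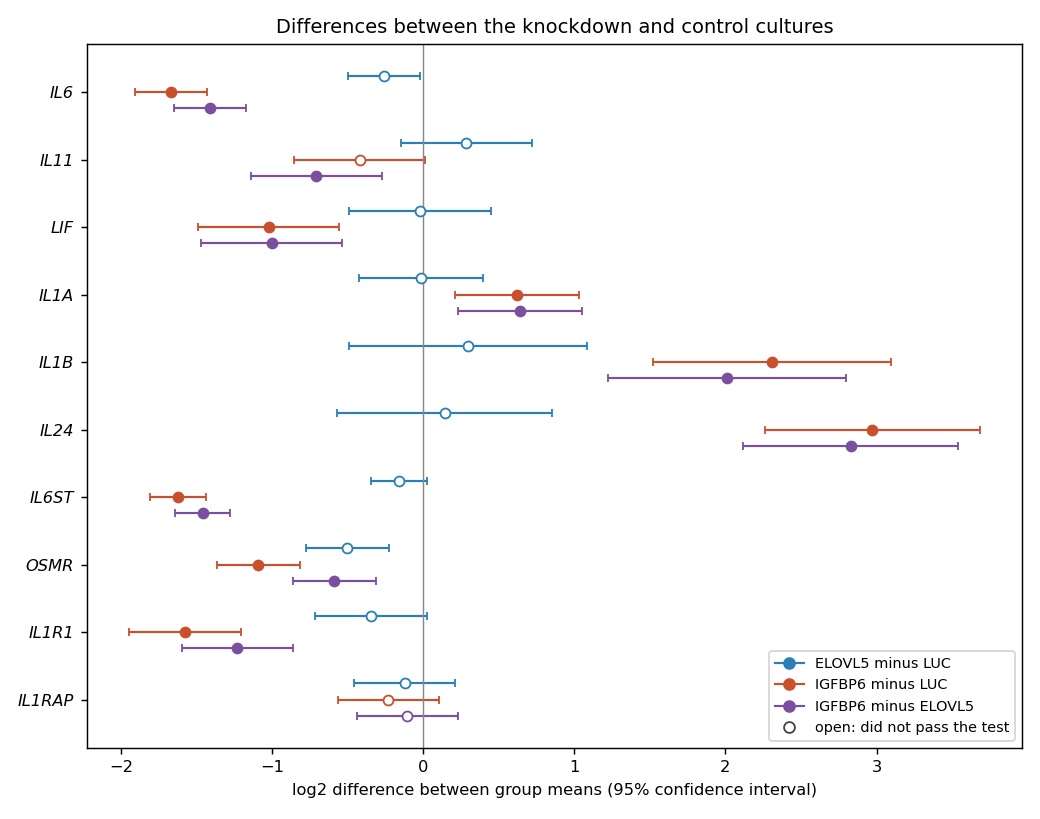
Log2 difference between group means for the 10 genes in the 3 comparisons, with 95% confidence intervals from limma; filled points passed the test. The ELOVL5 minus LUC points lie between −0.50 and 0.30 and are all open, while the IGFBP6 minus LUC points run from −1.67 for *IL6* to 2.97 for *IL24*.

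The spread within groups was not the same for all members. In the IGFBP6 group, replicate 2 was the highest array for 5 genes, *IL11*, *LIF*, *IL1A*, *IL1B* and *IL24*, and the lowest for *IL6*, while replicate 1 was the lowest for 7. In the LUC group, replicate 2 was the highest for 7 genes and replicate 3 the lowest for 7. The calls of *IL6*, *LIF*, *IL1B*, *IL24*, *IL6ST*, *OSMR* and *IL1R1* against LUC held on leaving out any 1 of the 9 arrays.

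Genes of the same pathways were taken from 9 further lists, which hold 100 genes, 90 of them with a single-symbol cluster. The lists were chosen with earlier results of these data known, so their shares of called genes are no test of the pathways. In the IGFBP6 knockdown 13 of the 90 rose (14.4%) and 8 fell (8.89%), against 7.82% and 8.49% of all genes, so the share that fell was near that of all genes. In the ELOVL5 knockdown 5 rose (5.56%) and 0 fell by limma, against 0.672% and 0.69% of all genes, while 10 higher and 5 lower genes had an unadjusted p under 0.05. Without any 1 of the ELOVL5 arrays, LUC replicate 1 or 3 or IGFBP6 replicate 3, 2 genes were called in that culture, and without LUC replicate 2, 3 genes were. Between the knockdowns 10 were higher (11.1%) and 9 lower (10%) in the IGFBP6 culture, against 6.5% and 6.64%. An analysis of variance of the 2 groups alone, without moderation, lost 7 of the 21 calls of the IGFBP6 knockdown against LUC. They were those of *IL18* (adjusted p = 0.0754), *IL27RA* (0.0895), *CASP1* (0.123), *NLRP3* (0.0537), *IL10RB* (0.102), *TNFAIP3* (0.185) and *CXCL8* (0.219). The same analysis of variance also ended 4 of the 5 calls of the ELOVL5 knockdown, all but *IL1RL1*. The other 10 listed genes were not analysed here.

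**Figure D3:**
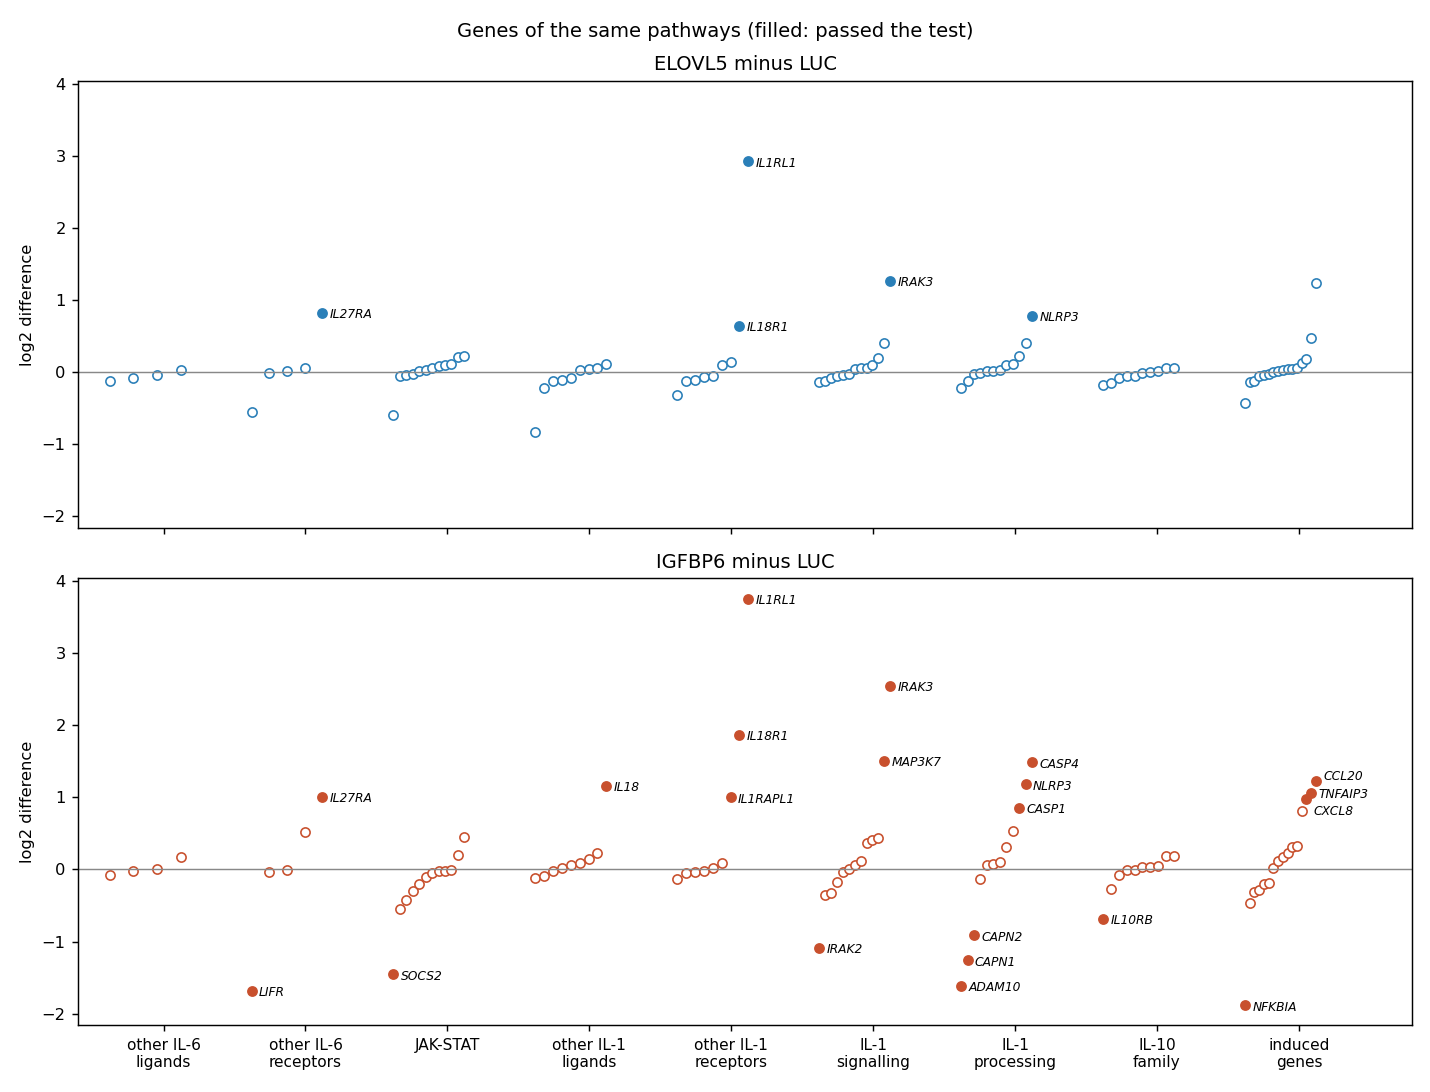
Log2 difference from LUC of the 90 genes of 9 related lists in the ELOVL5 (upper) and IGFBP6 (lower) knockdowns, ordered by size within a list; filled points passed the test. *IL1RL1* is the highest point in both panels, at 2.92 and 3.75. In the lower panel the IL-1 processing list runs from −1.61 for *ADAM10* to 1.49 for *CASP4*.

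Among the other IL-6 family genes, the 4 further ligands measured, *OSM*, *CTF1*, *IL27* and *EBI3*, were not called in any comparison. Of the 5 further receptors, *LIFR* fell and *IL27RA* rose in the IGFBP6 knockdown. *IL27RA*, which encodes the partner of gp130 in the IL-27 receptor, read 6.12 to 6.22 on the LUC arrays, 6.88 to 7.06 on the ELOVL5 arrays and 6.90 to 7.60 on the IGFBP6 arrays. It was higher than LUC in both cultures, by 0.82 (adjusted p = 0.0406) and 1.01 (adjusted p = 0.00127). The call in the ELOVL5 knockdown was lost without any 1 of the LUC or ELOVL5 arrays or IGFBP6 replicate 3 (adjusted p 0.0563 to 0.153). *IL6R*, the private receptor of IL-6, read 4.72 to 4.85 on the LUC and ELOVL5 arrays and 5.03 to 5.48 on the IGFBP6 arrays. Its difference from LUC was 0.52 (adjusted p = 0.00872), under the fold threshold, and 0.64 without IGFBP6 replicate 1, which passed (adjusted p = 0.000880). *IL11RA*, the private receptor of IL-11, read 5.01 to 5.15 on all arrays.

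Of 12 genes of the JAK-STAT pathway, *SOCS2* fell in the IGFBP6 knockdown and the other 11 were not called. *SOCS2*, a feedback inhibitor of cytokine signalling, fell by 1.45 (limma, adjusted p = 4.71e-05), from 8.22 ± 0.28 to 6.77 ± 0.11 (SD, n = 3). *STAT3*, the main transcription factor below gp130, read 12.23 to 12.62 on all arrays. *SOCS3*, a feedback gene induced by STAT3, differed by 0.45 (adjusted p = 0.124), and by 0.20 without IGFBP6 replicate 2. *TYK2* was called lower only against the ELOVL5 culture (−0.76, adjusted p = 0.000165; −0.06, adjusted p = 0.716, relative to the 40 nearest expressed genes) and differed from LUC by −0.54, under the fold threshold, which it passed without IGFBP6 replicate 2 (−0.59). *TYK2* encodes one of the JAK kinases.

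Among 9 further IL-1 family ligands and antagonists, *IL18* rose in the IGFBP6 knockdown. *IL18*, whose product is released after cleavage by caspase 1, read 10.85, 10.79 and 11.45 on the LUC arrays, 10.01, 10.31 and 10.27 on the ELOVL5 arrays and 12.04, 12.35 and 12.17 on the IGFBP6 arrays. The ELOVL5 arrays lay below LUC and the IGFBP6 arrays above it, with no overlap. *IL18* rose 2.23-fold in the IGFBP6 knockdown (log2 difference 1.16, SE 0.17, limma, adjusted p = 0.000873), and the ELOVL5 difference of −0.83 did not pass (adjusted p = 0.0545). The test between the knockdowns gave 1.99 (adjusted p = 3.98e-05). *IL1RN*, which encodes the natural antagonist of IL-1, read 4.43 to 4.67 on all arrays.

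Of 9 further receptors and decoys of the IL-1 family, 3 rose in the IGFBP6 knockdown and 2 of these in the ELOVL5 knockdown too. *IL1RL1*, which encodes the IL-33 receptor ST2, read 4.50, 4.40 and 4.34 on the LUC arrays, 7.13, 7.50 and 7.38 on the ELOVL5 arrays and 7.51, 8.80 and 8.19 on the IGFBP6 arrays. All knockdown arrays were above the control, by 7.59 times in the ELOVL5 (log2 difference 2.92, SE 0.26, limma, adjusted p = 0.000464) and 13.5 times in the IGFBP6 culture (3.75, adjusted p = 4.88e-06). The difference between the knockdowns of 0.83 did not pass (adjusted p = 0.0567), but without IGFBP6 replicate 1 it was 1.16 and passed (adjusted p = 0.00235), and without IGFBP6 replicate 2 it was 0.51 (adjusted p = 0.123). *IL33*, the gene of its ligand, read 4.0 to 4.49 on all arrays. *IL18R1*, a chain of the IL-18 receptor, read 4.46 to 4.56 on the LUC arrays, 5.00 to 5.27 on the ELOVL5 arrays and 6.13 to 6.57 on the IGFBP6 arrays. It rose by 1.87 in the IGFBP6 knockdown (adjusted p = 3.63e-06) and by 0.64 in the ELOVL5 knockdown (adjusted p = 0.0393). The smaller rise was lost without any 1 of the LUC or ELOVL5 arrays or IGFBP6 replicate 3 (adjusted p 0.0598 to 0.176). The third gene, *IL1RAPL1*, rose by 1.00 in the IGFBP6 knockdown (adjusted p = 0.000130).

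*IL1R1* belongs to a cluster of 6 consecutive genes on chromosome 2, in the order *IL1R2*, *IL1R1*, *IL1RL2*, *IL1RL1*, *IL18R1* and *IL18RAP*. In the IGFBP6 knockdown *IL1R1* fell while *IL1RL1* and *IL18R1* rose. The decoy receptor gene *IL1R2* read 4.22 to 4.42, *IL1RL2* read 5.31 to 5.62 and *IL18RAP* read 3.77 to 4.02 on all arrays, and none of the 3 was called in any comparison. Genes of this cluster thus moved in opposite directions in the same culture, with the uncalled *IL1RL2* between *IL1R1* and *IL1RL1*.

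**Figure D4:**
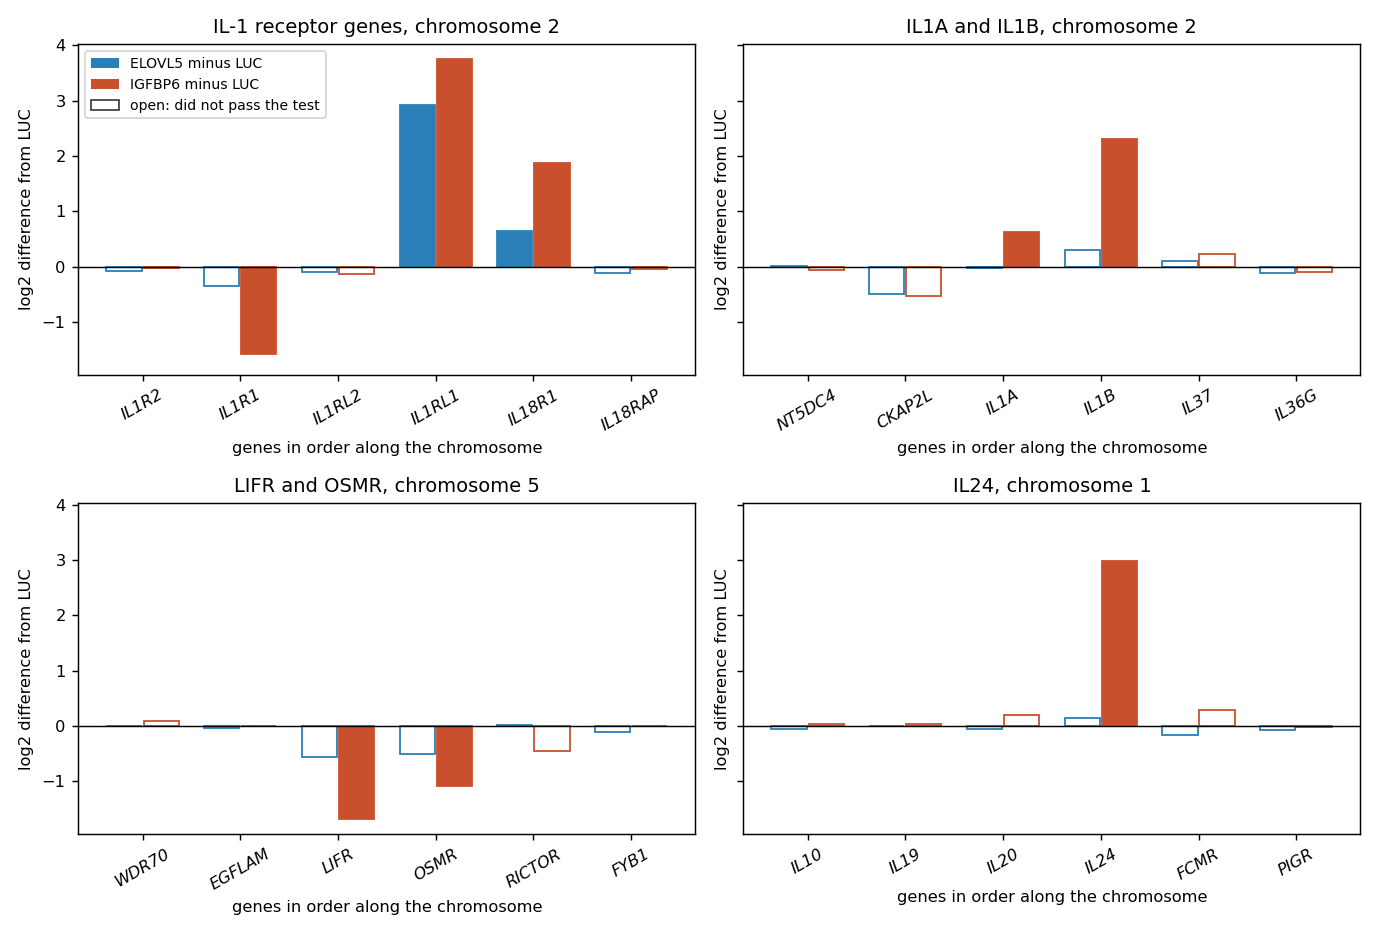
Log2 difference from LUC in the ELOVL5 and IGFBP6 knockdowns for genes in their order along the chromosome around *IL1R1*, *IL1A* and *IL1B*, *OSMR* and *IL24*; filled bars passed the test. In the IGFBP6 knockdown *IL1R1* fell while *IL1RL1* and *IL18R1*, further along the same cluster, rose. *LIFR* and *OSMR* fell together, and *IL24* rose with no call in the genes around it.

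Of 13 genes of the signalling path below the IL-1 receptor, *IRAK3* and *MAP3K7* rose and *IRAK2* fell in the IGFBP6 knockdown. *IRAK3* encodes an inhibitor of IL-1 receptor signalling. It read 6.0 to 6.24 on the LUC arrays, 7.31 to 7.42 on the ELOVL5 arrays and 8.25 to 8.86 on the IGFBP6 arrays, with no overlap. It rose 2.40-fold in the ELOVL5 (log2 difference 1.26, limma, adjusted p = 0.00291) and 5.86-fold in the IGFBP6 knockdown (2.55, adjusted p = 1.96e-06). *MAP3K7*, the kinase TAK1, rose by 1.5 (adjusted p = 2.25e-05) and *IRAK2*, an activating member of the IRAK family, fell by 1.09 (adjusted p = 0.000134).

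A list of 12 genes covered processing and release of IL-1 proteins, with the sheddase genes *ADAM10* and *ADAM17* included. Of these, 3 rose and 3 fell in the IGFBP6 knockdown, where 7.82% of all genes were called higher and 8.49% lower. *CASP4*, an inflammatory caspase, rose from 8.64, 8.82 and 8.92 on the LUC arrays to 9.93, 10.47 and 10.44 (log2 difference 1.49, limma, adjusted p = 5.72e-05). *CASP1*, the caspase that matures IL-1 beta and IL-18, rose by 0.85 (adjusted p = 0.00494). *NLRP3*, an inflammasome sensor, rose by 1.18 (adjusted p = 0.000354). *NLRP3* also rose by 0.78 in the ELOVL5 knockdown (adjusted p = 0.0427), a call that was lost without any 1 of the LUC or ELOVL5 arrays or IGFBP6 replicate 3 (adjusted p 0.0576 to 0.157) or with the replicate number as a block (0.0766). The genes that fell were *CAPN1* (−1.26, adjusted p = 0.000118), *CAPN2* (−0.91, adjusted p = 6.51e-05) and *ADAM10* (−1.61, adjusted p = 9.92e-06). *CAPN1* and *CAPN2* encode calpains, the proteases that mature IL-1 alpha. *ADAM10* encodes a sheddase that can release the IL-6 receptor from the cell surface. *ADAM17*, a gene of the same list, differed by 0.53 (limma, adjusted p = 0.0118), under the fold threshold.

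Of 10 genes of the IL-10 family and its receptors, *IL10RB* fell by 0.68 in the IGFBP6 knockdown (limma, adjusted p = 0.00400), and without IGFBP6 replicate 1 (−0.57) or LUC replicate 2 (−0.57) its change was under the fold threshold. Of 16 genes known to be induced by IL-1 or IL-6 signalling, 3 rose and 1 fell. *CCL20*, a chemokine gene, rose from 4.93 to 5.15 on the LUC arrays to 5.94 to 6.46 (log2 difference 1.22, adjusted p = 0.000109). *TNFAIP3*, an inhibitor of NF-kappaB, rose by 1.06 (adjusted p = 0.00869), a call lost without moderation (adjusted p = 0.0617). *CXCL8*, which encodes interleukin 8, rose by 0.98 (adjusted p = 0.0141), a call lost without IGFBP6 replicate 2 (0.77, adjusted p = 0.0522) and without moderation (adjusted p = 0.0813). *NFKBIA*, which encodes the NF-kappaB inhibitor I-kappaB alpha, fell from 11.52, 11.66 and 11.42 to 9.34, 9.86 and 9.76 (log2 difference −1.88, SE 0.14, adjusted p = 8.25e-06). The other 12 genes were not called.

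Macrophages, fibroblasts and endothelial cells also make these cytokines, so their markers were read on the same arrays. The 10 monocyte and macrophage markers read 3.66 to 6.14, with array means of 4.63 to 4.70 for LUC, 4.61 to 4.62 for ELOVL5 and 4.52 to 4.74 for IGFBP6. *CD14* read 3.89 to 4.18, and *PTPRC* was lower in the IGFBP6 culture by 0.77 (limma, adjusted p = 0.000408). The 6 lymphocyte markers read 3.77 to 5.61 and the 7 fibroblast markers 3.89 to 5.15. Among the 6 endothelial markers, which read 3.45 to 6.75, *KDR* was higher in the IGFBP6 culture by 0.63 (adjusted p = 0.000404). The part of these markers in the results was not tested.

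For the 7 members whose group means spanned at least 1, the genes with the most similar pattern were sought by the root mean square difference of centred log2 values over the 9 arrays. *IL6* was closest to *ATP10A*, *CSAG1* and *ARNT2* (0.0748 to 0.104), *IL6ST* to *MMP16*, *CNN3* and *TFAP2C* (0.105 to 0.112) and *IL1R1* to *ZBTB38*, *ATL1* and *ATP7A* (0.0637 to 0.0977). *OSMR* was closest to *LMO7*, *NUP62CL* and *GOLM1* (0.0717 to 0.0873), and *LIF* to *CYC1*, *SEC61B* and *SERTAD3* (0.123 to 0.143). *IL1B* was closest to *DCAF8L1*, *PLTP* and *SEL1L3* (0.181 to 0.293) and *IL24* to *AADAC*, *LINC02864* and *OLFML1* (0.346 to 0.414). These genes describe likeness over arrays of the same 3 cultures, and no other member was among them.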

How the data were processed

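Total RNA of 9 samples (3 LUC, 3 ELOVL5, 3 IGFBP6) was hybridised to 1-colour arrays. The values deposited by the authors are log2 intensities per transcript cluster, made by RMA (background correction, normalization between arrays and summary over probes) in the Transcriptome Analysis Console 4.0.0.25; the RMA options are not given in the sources used here. Values ran from 2.28 to 19.29, 0.301% of them above 16, the limit of a 16-bit scanner, so the scale of the brightest transcripts is that of the authors' software. Background compresses differences near or below the median of 5.02, where *IL1A* lies. The LUC arrays of *IL1B* (4.94 to 5.56), *IL1RL1* (4.34 to 4.50) and *IL18R1* (4.46 to 4.56) also read there. So did those of *CCL20* (4.93 to 5.15) and *NLRP3* (5.06 to 5.24), and the fold changes of these genes share that limit.

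Of 67528 clusters, 23781 carried 1 gene symbol in GEO's platform annotation, 1543 several and 42204 none. A linear model without covariates was fitted to all 9 arrays (limma 3.58.1, functions lmFit and eBayes, R 4.3.3). It left 6 residual degrees of freedom, to which moderation added 4.04, and p-values were adjusted by Benjamini-Hochberg over all clusters. An exact permutation test of 3 against 3 arrays cannot go below a p of 0.1. The number of arrays limits the precision. The fit was tested on simulated data. Called genes needed an adjusted p under 0.05 and a 1.5-fold change. Alternatives were ANOVA of the 2 groups compared without moderation, other normalizations, filters and fold thresholds, and leaving out each array. The methods name adjusted p-values from ANOVA, without saying which groups were fitted together or whether the spread was moderated. Gene order came from RefSeq (GRCh38.p14).

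The members and lists were chosen with earlier results of these data known. Named genes were all members, up to 4 called genes per list and comparison, the direct binding partners of the members, their nearest neighbours in chromosome order and their 3 nearest genes by pattern. Outside this rule, *STAT3*, *SOCS3*, *IL33*, *CTF1*, *IL27*, *EBI3*, *ADAM17*, *KRT8*, *KRT18*, *KRT19*, *EPCAM*, *GATA3* and further chromosome neighbours were named after their values were seen.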

Additional observations from a re-analysis of the deposited data

Results flagged for a closer look

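For 9 of the 10 genes the difference from LUC was not of the same size in both knockdowns, by limma's direct test of IGFBP6 against ELOVL5. Of all genes, that test called 6.5% higher and 6.64% lower. The LUC arrays are shared by both comparisons and cancel in the difference, but they enter the estimate of the spread. Lower values in the IGFBP6 culture were found for *IL6ST* (log2 difference −1.46), *IL6* (−1.41), *IL1R1* (−1.23), *LIF* (−1.0), *IL11* (−0.71) and *OSMR* (−0.59). Higher values were found for *IL24* (2.83), *IL1B* (2.01) and *IL1A* (0.64). *IL11*, *IL1A*, *OSMR*, *LIF* and *IL1B* lost this call in some alternatives.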

How the results depend on the processing

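Over all alternatives, the differences of *IL6*, *IL24*, *IL6ST*, *OSMR* and *IL1R1* in the IGFBP6 knockdown against LUC kept their direction and call. Counting each member under each alternative, 209 of 229 differences from LUC in the IGFBP6 knockdown kept both, as did 199 of 229 between the knockdowns and 216 of 229 in the ELOVL5 knockdown. An analysis of variance without moderation, which takes the spread from 2 groups alone, called 5 members in the IGFBP6 knockdown against LUC and 5 against ELOVL5. The main fit called 8 and 9. By that analysis of variance *IL1B* had adjusted p-values of 0.108 and 0.122, and *LIF* 0.171 and 0.131. With all 9 arrays fitted without moderation, *LIF* had 0.0503 and 0.0604. Set against the 40 nearest expressed genes in chromosome order, *IL11* was called lower than LUC (−0.96, adjusted p = 0.00117), and the calls against LUC of *IL1A* (0.39), *CASP1* (0.40) and *IL10RB* (−0.42) were lost. Leaving out each array gave 7 to 8 members called for IGFBP6 against LUC, 6 to 9 for IGFBP6 against ELOVL5 and 0 for ELOVL5 against LUC. For the other pathway genes in the ELOVL5 knockdown it gave 2 to 5 calls, and no moderation gave 1, in place of 5.

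All sign changes were uncalled differences of the ELOVL5 knockdown from LUC. *IL1A* turned to 0.016 (quantile normalization), 0.0033 (median centring), 0.14 (nearest genes), 0.04 and 0.02 (without ELOVL5 replicate 1 or 3) and 0.10 (without LUC replicate 2). *IL11* turned to −0.13 and *IL1RAP* to 0.012 with the nearest genes as reference, and *IL1RAP* to 0.05 without LUC replicate 2. *LIF* turned to 0.03 without ELOVL5 replicate 2 and 0.13 without LUC replicate 3, and *IL24* to −0.02 without ELOVL5 replicate 1 and −0.16 without LUC replicate 1. Leaving out each array, the range was −0.11 to 0.10 for *IL1A*, −0.14 to 0.13 for *LIF*, −0.16 to 0.37 for *IL24* and −0.21 to 0.05 for *IL1RAP*. The causes of these changes were not tested.

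The values did not settle whether the replicate numbers pair the samples. Of 9 pairs of the same number, 4 had correlated deviations above 0.1 (range −0.06 to 0.33), and 6 of 9 samples correlated best with their own number. Pairs of unlike numbers ran from −0.27 to 0.19. With the replicate block 0, 8 and 9 members were called, as without it. Of the calls among other pathway genes, that of *NLRP3* in the ELOVL5 knockdown was the only one lost with the block.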
